A study of Mus musculus with 6 samples.

Results

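The genes described here encode the nuclear subunits of the mitochondrial respiratory chain and of ATP synthase, as measured in tuft cells of the mouse ileum. They were taken by symbol alone, as every gene whose symbol begins with Nduf, Uqcr, Cox4 to Cox8 or Atp5, and 88 of the 23420 genes in the expression table met this rule. The 6 libraries form 1 group, each a separate replicate of C57BL/6J ileal tuft cells, and no treatment, other genotype or other tissue was analysed here. All libraries share the Gfi1b-eGFP allele, heterozygous (Gfi1b-eGFP/+), which places green fluorescent protein under the control of the Gfi1b locus. Gfi1b is a transcription factor gene that is active in tuft cells but also in some blood lineages, so the marker alone does not define the cell. The sort was for GFP+ EpCam+ CD45- cells that excluded propidium iodide. Mice were used at 6 to 12 weeks of age. RNA from the sorted cells was amplified with a modified SMART-Seq2 protocol, which copies full-length polyadenylated RNA. Levels are in TPM, transcript abundances that divide reads by transcript length and set each library to the same total, so that levels of different genes within a library can be set side by side. Values after ± are SD over the 6 libraries. The deposited values hold no read counts, and sequencing depth is therefore unknown.

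The respiratory chain passes electrons from NADH and succinate to oxygen across complexes in the inner mitochondrial membrane, and complexes I, III and IV pump protons as they do so. ATP synthase lets the protons flow back through a rotating ring in the membrane (Fo) and makes ATP in its soluble head (F1). Complex I, III, IV and ATP synthase each combine nuclear-encoded subunits, the subject here, with subunits encoded in mitochondrial DNA, for which the table holds 0 symbols of the mt- form. Several nuclear subunits of complex IV, also called cytochrome c oxidase, exist as a widely expressed form and a form known from 1 or a few tissues, such as heart and skeletal muscle, lung or testis. Tuft cells are rare chemosensory epithelial cells that detect luminal signals of parasites and microbes, succinate among them.

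Cell type markers were described first. Of the 8 tuft cell markers listed, 7 were in the table and all 7 were above 0 in every library, with mean levels between 62.4 TPM (Il25) and 1141 TPM (Trpm5). Among the 7 is Gfi1b, whose reporter was used for the sort, so its presence was set by the design. Markers of other cells were present too. The summed level of 8 enterocyte markers ranged from 5969 to 15133 TPM and that of 6 Paneth cell markers from 3560 to 21409 TPM. That of 6 goblet cell markers ranged from 769 to 4303 TPM, of 6 enteroendocrine markers from 367 to 523 TPM and of 5 stem cell markers from 317 to 788 TPM. The sum of 6 immune cell markers, which are not epithelial, ranged from 122 to 286 TPM. None of the enterocyte, Paneth or goblet markers was listed at 0 in any library, so values above 0 do not by themselves set tuft cells apart. The means of Fabp1 (7410 TPM, enterocyte) and Defa24 (5147 TPM, Paneth cell) were above that of every tuft cell marker. The ribosomal RNA gene Rn45s took 23.1 to 32.6% of all TPM. Gm20594 was listed at 15588 to 21283 TPM in replicates 1 to 3 and at 51804 to 56441 TPM in replicates 4 to 6, and 61 of the 425 25-base words of its transcript (14.4%) also occur in the mitochondrial ribosomal RNA gene mt-Rnr2. Because TPM share 1 total, a library with more of these 2 genes lists every other gene lower, and the main counts by library below are given with and without them. Fewer cells of a type and less RNA per cell cannot be told apart in such bulk samples.

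Respiratory chain genes were among the more abundant genes of these cells. Of the 88 genes, 81 (92.0%) were above 0 in every library, against 47.2% of all genes of the table, and 67 had a mean TPM of 100 or more. Counted by rank of mean TPM, 6 were among the top 100 genes of the table and 48 among the top 500. Together they took 3.06 ± 0.413% of TPM (range, 2.72 to 3.84%), or 4.44 ± 0.522% with Rn45s and Gm20594 left out of the total. The 7 genes that were not above 0 throughout were all paralogs of a complex IV subunit, with NDUFA4 counted as one. Of these, Cox4i2, Cox6a2, Cox7b2, Cox8b and Cox8c were listed at 0 in all 6 libraries, Cox6b2 was above 0 in 4 and Ndufa4l2 in 2. Outside the assembly factors, these paralogs, Cox7a1, Atp5s and Atp5sl, the remaining 71 structural genes all had a mean of 42.4 TPM or more. No symbol among the 88 marked a pseudogene, and the 87 genes with a match in the GENCODE annotation lie on 19 chromosomes, with 9 on chromosome 7, 3 on the X chromosome and 0 in mitochondrial DNA.

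Levels differed by complex. In each library the median level of the complex I subunits was below that of complex III and of ATP synthase, with no overlap of the ranges over libraries. The mean over libraries of that median, on the log2(TPM + 1) scale, was 7.57 ± 0.25 for the 36 structural complex I genes, 8.87 ± 0.26 for the 8 complex III genes and 9.02 ± 0.16 for the 15 structural ATP synthase genes. For complex IV it was 9.66 ± 0.17 over the 13 genes above 0 in every library, and 8.65 ± 0.20 over all 20, since 7 of them were at or near 0. The 7 Ndufaf assembly factors of complex I stood at 3.66 ± 0.69. Replicate 3, which was high for many members, moved the median of the F1 genes of ATP synthase from 9.01 without it to 9.13 with it. TPM in a full-length protocol depend on the assumed transcript length, and the lengths behind the deposited TPM were not used here. In their place stands the median length of each gene's protein-coding GENCODE transcripts, which can differ from them. Over the 72 structural genes above 0 in every library, Spearman's rho of mean TPM with that median was -0.38. It describes genes that are not independent replicates, and does not measure how TPM depend on the length used to compute them.

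**Figure D1:**
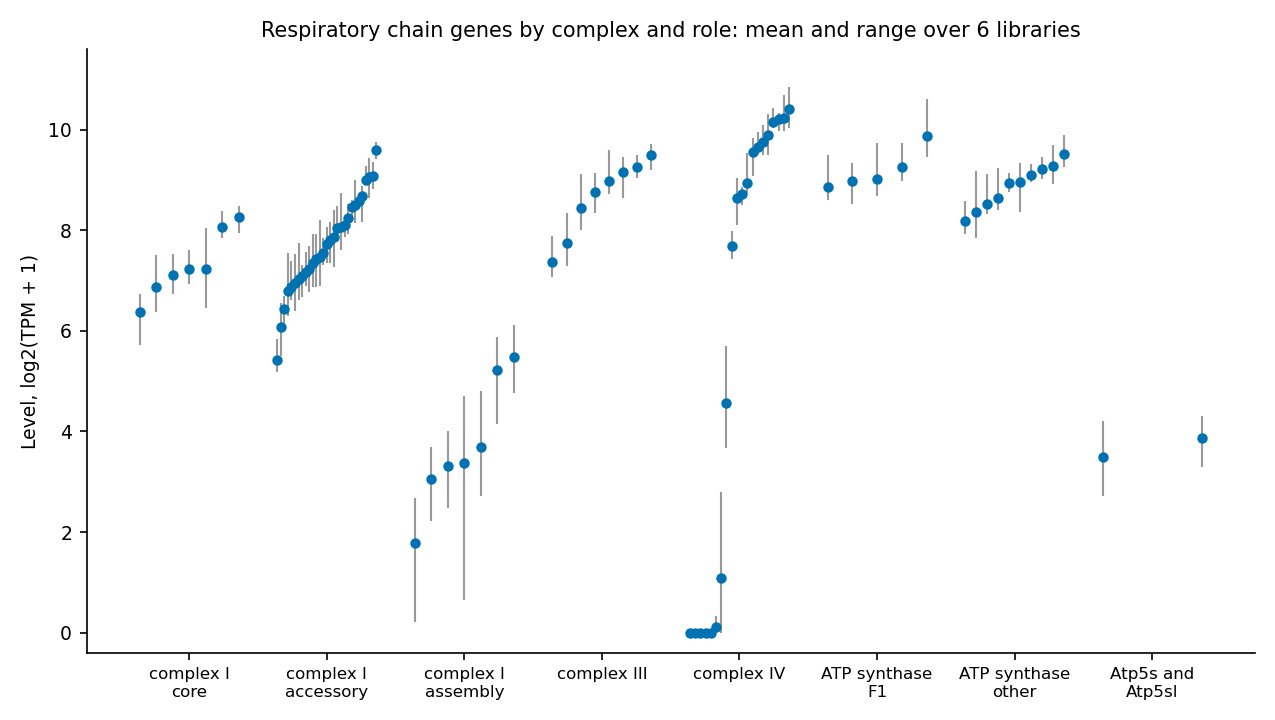
Level of each of the 88 genes by complex and role. Points are means over 6 libraries of log2(TPM + 1), vertical lines run from the lowest to the highest library, and genes are ordered by level within each class. The complex IV genes include a high set and 7 paralogs at or near 0, with Cox7a1 between them, and the complex I assembly factors lie below nearly all structural subunits of that complex.

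Complex I takes electrons from NADH. Its 7 core nuclear subunits, which hold the flavin and the iron-sulfur clusters, were all above 0 in every library and had means from 84.4 to 309.7 TPM. Ndufs7, which carries the last iron-sulfur cluster before ubiquinone, was the highest at 309.7 ± 41.9 TPM, with 284, 350.0, 358, 245, 306 and 315 TPM across replicates 1 to 6. Ndufs8, another iron-sulfur subunit, followed at 269.6 ± 39 TPM and lay below Ndufs7 in all 6 libraries. The middle of the order was close: Ndufv2, which holds an iron-sulfur cluster, was at 151 ± 27.5 TPM, Ndufv1, the NADH-binding flavoprotein, at 139.7 ± 32.8 TPM and Ndufs3 at 121 ± 37.2 TPM, and their ranges overlapped. Ndufs1, the largest iron-sulfur subunit, was the lowest at 84.4 ± 18.1 TPM, with 86.2, 78.6, 105, 52, 92 and 92.4 TPM across replicates 1 to 6.

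The 29 accessory subunits, which surround and stabilise the core, covered a wider range. Ndufa1, a small membrane subunit, was the highest at 781 ± 88.9 TPM, followed by Ndufa3 at 545 ± 74.8 TPM and Ndufa6 at 542 ± 107 TPM. Ndufa1 was listed at 869, 866, 716, 685, 702 and 849.7 TPM across replicates 1 to 6, above Ndufa3 and Ndufa6 in each library. The lowest were Ndufs4, known for its part in the late steps of complex I assembly, at 85.7 ± 11.7 TPM, Ndufs5 at 69.1 ± 20 TPM and Ndufa11 at 42.4 ± 8.11 TPM. Ndufa11 was listed at 39.6, 48.4, 56, 35.3, 36.9 and 38 TPM across replicates 1 to 6. The Ndufs5 value is uncertain, because 28.0% of the 25-base words of its transcripts also occur in other genes of the table, chiefly BC002163, which was listed at 211 ± 51.4 TPM. The sum of Ndufs5 and BC002163 was 280.2 ± 58.7 TPM, near the level of the middle accessory subunits, whose median was 214 TPM.

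The Ndufaf genes encode factors that help to assemble complex I and leave it when it is finished. All 7 were above 0 in every library, and their means ran from 2.99 to 46.2 TPM. Ndufaf2 was the highest, with lowest, median and highest values of 26.1, 45.9 and 68 TPM, and Ndufaf3 came next at 16.8, 41 and 58.1 TPM. Ndufaf7 was at 5.57, 12.8 and 27 TPM. The lowest were Ndufaf6 at 9.69 ± 4.25 TPM, Ndufaf4 at 7.9 ± 3.44 TPM and Ndufaf5 at 2.99 ± 1.98 TPM. Ndufaf1 had the largest spread of all members with a mean TPM of 10 or more: 24.3, 16.4, 24.9, 0.56, 10.2 and 5.02 TPM across replicates 1 to 6, an SD of 1.55 on the log2(TPM + 1) scale. Its 3 highest values were in replicates 1 to 3 and its 3 lowest in replicates 4 to 6. A further 6 assembly factors with other symbols were all above 0 in every library, from 8.57 TPM (Nubpl) to 26.8 TPM (Ecsit).

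Complex III passes electrons from ubiquinol to cytochrome c. Its highest genes were those of small subunits: Uqcr11 at 734 ± 114 TPM, Uqcrb at 612 ± 79.7 TPM and Uqcrq at 581 ± 119 TPM. Uqcr11 was listed at 585, 778, 818, 595, 787 and 842 TPM across replicates 1 to 6. The lowest were the core protein genes Uqcrc1 at 359 ± 102 TPM and Uqcrc2 at 167 ± 37.3 TPM and, between them, the Rieske iron-sulfur protein gene Uqcrfs1 at 219.9 ± 61.2 TPM. Uqcrc2 was listed at 134, 135, 235, 153, 173 and 170.1 TPM across replicates 1 to 6, below every other gene of the complex except Uqcrfs1 in replicate 5. Cyc1, which encodes the cytochrome c1 subunit but does not carry an Uqcr symbol, was at 361.6 ± 142.7 TPM, and Cycs, the somatic cytochrome c, at 102.8 ± 23.9 TPM. The testis form Cyct was above 0 only in replicate 3, at 1.48 TPM.

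Complex IV hands electrons to oxygen, and its genes held the highest levels of the whole set. Cox8a was the highest of the 88, with 1452, 1620.3, 1841, 1115, 1048 and 1251 TPM across replicates 1 to 6 and a mean of 1388 ± 307 TPM. Cox4i1 followed at 1225 ± 218 TPM and Cox6b1 at 1186 ± 102 TPM. The order of these 3 was not the same in each library: Cox6b1 exceeded Cox8a in replicate 5, at 1200.0 against 1048 TPM, and Cox4i1 did so too, at 1221 TPM. Cox7c was listed at 815 ± 98.7 TPM, but 21.3% of its 25-base words also occur in other genes, chiefly Gm10012, which was at 2.35 TPM. Of 15 genes for complex IV assembly, all were above 0 in every library, from 6.47 TPM (Taco1) to 250.4 TPM (Cox17, a copper chaperone).

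For complex IV and its associated subunit NDUFA4, the widely expressed form of each paralog family exceeded its tissue-restricted forms in all 6 libraries. Cox4i1, Cox6a1, Cox7b and Cox8a had partners listed at 0 throughout: Cox4i2, the form known from lung and induced by low oxygen; Cox6a2, the form of heart and skeletal muscle; Cox7b2; Cox8b, another form of heart and muscle; and Cox8c, known from testis. Against a gene listed at 0 no fold and no test is given. Cox6a1 was at 971 ± 230.0 TPM and Cox7b at 408 ± 100.5 TPM. Cox6b2, known from testis, was listed at 0, 0, 1.33, 2.53, 5.94 and 0.58 TPM across replicates 1 to 6, so that in replicates 1 and 2 it was at 0. The difference between Cox6b1 and Cox6b2 was 9.13 ± 1.15 on the log2(TPM + 1) scale (exact permutation test by sign flips, two-sided, 6 libraries, p = 0.03125, adjusted over 7 pairs p = 0.0365). Here 0.03125 is the smallest p that 6 libraries allow. Ndufa4l2, a paralog of Ndufa4 known to be induced by low oxygen, was at 0 except in replicate 1 (0.25 TPM) and replicate 5 (0.23 TPM), against 541, 715, 907, 783, 746 and 857 TPM across replicates 1 to 6 for Ndufa4. That difference was 9.45 ± 0.39 on the log2(TPM + 1) scale (exact permutation by sign flips, p = 0.03125, adjusted p = 0.0365), and it depends on the pseudocount of 1, since it was 12.3 with a pseudocount of 0.1, where the Cox6b1 difference was 10.7.

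The Cox7a family was the 1 complex IV family with a muscle form above 0 in every library. Cox7a1, known from heart and skeletal muscle, was listed at 19.4, 18.4, 11.8, 34.4, 18.1 and 50.9 TPM across replicates 1 to 6. Cox7a2, its widely expressed partner, was listed at 361, 423, 450.2, 416, 413 and 462 TPM across replicates 1 to 6, and the ranges of both genes did not overlap. The ratio of Cox7a2 to Cox7a1 ran from 9.07 in replicate 6 to 38.2 in replicate 3, with a median of 20.7. The mean difference was 4.15 ± 0.71 on the log2(TPM + 1) scale (exact permutation by sign flips, p = 0.03125, adjusted p = 0.0365). Of the summed level of both genes, Cox7a1 made up 5.6 ± 2.7%. Cox7a1 varied far more than Cox7a2, with SDs of 0.73 and 0.12 on the log2(TPM + 1) scale, and it was lowest in replicate 3, in which most of the other genes were highest. No list of muscle markers was measured, so a part of other cells in the Cox7a1 level was not tested. Cox7a2l, a paralog known for its role in joining complexes III and IV into supercomplexes, was at 207 ± 32.4 TPM. Cox7a2 exceeded it in all 6 libraries, by 1.03 ± 0.22 on the log2(TPM + 1) scale (exact permutation by sign flips, p = 0.03125, adjusted p = 0.0365).

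**Figure D2:**
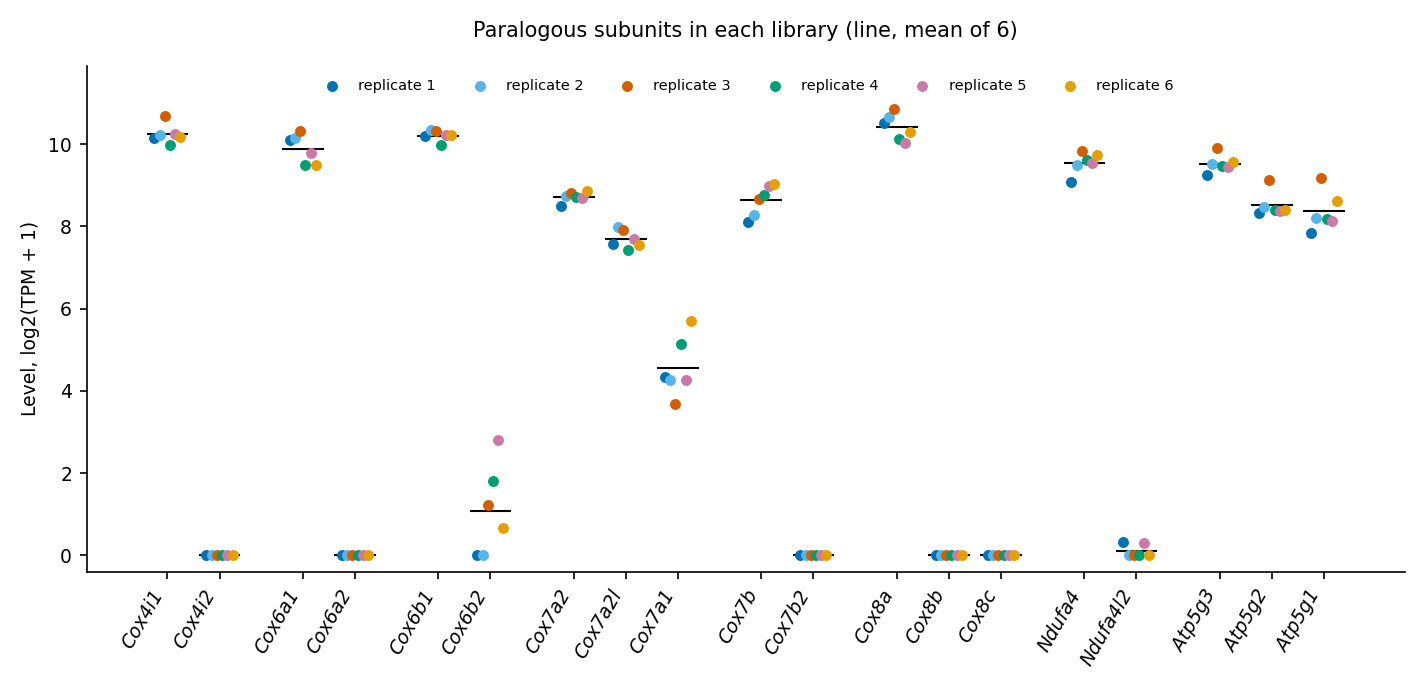
Level of each paralog in each library, on the log2(TPM + 1) scale. Each point is 1 library, coloured by replicate, and black lines are means of 6. Cox4i2, Cox6a2, Cox7b2, Cox8b and Cox8c lie at 0, Cox7a1 lies between 11.8 and 50.9 TPM, and of the subunit c genes Atp5g3 lies above Atp5g1 and Atp5g2 in each library.

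The upstream sequences of 4 complex IV families are shown because each sets a form that was high beside a form at or near 0, or, for Cox7a1, low, and because both forms were matched to a RefSeq window. The Cox4i, Cox6a and Ndufa4 pairs were not analysed here in this way. Each is the 120 bases directly before the RefSeq transcription start (GRCm38.p6, 5′ to 3′ on the strand of the gene), in lower case with each CpG dinucleotide in capitals.
Cox7a2 (chr9:79759854-79759973, minus strand): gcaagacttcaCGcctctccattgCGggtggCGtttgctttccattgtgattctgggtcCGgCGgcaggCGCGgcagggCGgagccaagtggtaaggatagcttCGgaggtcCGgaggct
Cox7a1 (chr7:30184051-30184170, plus strand): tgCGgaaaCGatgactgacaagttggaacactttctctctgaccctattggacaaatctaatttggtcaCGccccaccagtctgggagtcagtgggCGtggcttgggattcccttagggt
Cox6b1 (chr7:30626115-30626234, minus strand): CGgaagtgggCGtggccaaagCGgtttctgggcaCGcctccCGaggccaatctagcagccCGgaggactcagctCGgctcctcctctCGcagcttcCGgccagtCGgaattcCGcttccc
Cox6b2 (chr7:4753095-4753214, minus strand): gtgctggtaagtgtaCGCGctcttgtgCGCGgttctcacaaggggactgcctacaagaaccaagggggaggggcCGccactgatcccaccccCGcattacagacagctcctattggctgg
Cox8a (chr19:7217617-7217736, minus strand): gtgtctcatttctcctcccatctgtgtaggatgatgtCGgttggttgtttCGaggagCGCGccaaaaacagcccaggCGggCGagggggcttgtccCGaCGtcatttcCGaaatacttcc
Cox8b (chr7:140900447-140900566, minus strand): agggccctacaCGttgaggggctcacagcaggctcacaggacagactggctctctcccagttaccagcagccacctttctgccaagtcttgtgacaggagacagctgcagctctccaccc
Cox7b (chrX:106015580-106015699, plus strand): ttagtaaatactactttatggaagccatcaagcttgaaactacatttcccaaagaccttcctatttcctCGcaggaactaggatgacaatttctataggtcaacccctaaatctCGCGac
Cox7b2 (chr5:71548206-71548325, minus strand): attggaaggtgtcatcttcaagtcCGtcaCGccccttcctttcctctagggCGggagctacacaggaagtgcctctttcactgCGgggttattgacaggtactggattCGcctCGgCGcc
Within these 120 bases Cox7a2 held 10 CpG and Cox7a1 4, Cox6b1 held 11 and Cox6b2 6, and Cox8a held 9 and Cox8b 1. The Cox7b family went the other way, with 3 CpG for Cox7b and 7 for Cox7b2, which was listed at 0. Cox7b is the one of these genes on the X chromosome. With 4 families compared, these counts describe the printed sequences and no test was made.

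Promoters of the whole set were then described in the same way. RefSeq windows were found for 70 of the 88 genes, and each runs from 250 bases before the start to 50 bases after it. The 250 bases before the start held a median of 14 CpG, against 6 over all 27025 RefSeq promoters, 1 per symbol. The median ratio of observed to expected CpG was 0.773 against 0.378. The 27025 were not limited to genes of the expression table. In the full windows, on either strand, the motif CGCATGCG, the core of the site of NRF1, a known regulator of respiratory chain genes, was found in 10 of 70 (14.3%) against 1.91% of all promoters. These 10 were Ndufa8, Ndufa11, Ndufaf4, Ndufaf5, Uqcrc1, Uqcr11, Cox6a1, Atp5g2, Atp5k and Atp5l. The ETS-type motif CCGGAAG was found in 14 (20.0%, against 9.12%) and the YY1-type motif AAGATGGC in 8 (11.4%, against 2.88%), among them Ndufs7 and Ndufb8. CCAAT was found in 30 (42.9%, against 37.9%) and TATAAA in 7 (10.0%, against 14.2%). The first of these motifs contains 2 CpG and the second 1. Neither CpG content nor expression level was matched between the members and all promoters. None of the matches shows that a factor was bound. The NRF1-type match of Atp5g2 lies within the 120 bases before its start, where it reads CGCGcatgCGc in capitals for CpG.
Atp5g2 (chr15:102671048-102671167, minus strand): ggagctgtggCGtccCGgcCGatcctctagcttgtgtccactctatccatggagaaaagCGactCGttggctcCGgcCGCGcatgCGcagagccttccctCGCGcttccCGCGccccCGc

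Structural ATP synthase genes lay between means of 295 and 976 TPM. Of its F1 head, Atp5b, the catalytic beta subunit, was the highest at 976 ± 307 TPM, followed by Atp5d at 624 ± 137 TPM and Atp5a1, the alpha subunit, at 533 ± 168 TPM. Atp5b was listed at 973, 942, 1562, 752, 706 and 919 TPM across replicates 1 to 6. Atp5e was at 513 ± 113 TPM and the lowest, Atp5c1, the gamma subunit of the central stalk, at 477 ± 123 TPM. The alpha and beta subunits are present in equal number in the enzyme, and Atp5b exceeded Atp5a1 in all 6 libraries. Of the other 10 genes, Atp5g3 was at 741 ± 116 TPM, Atp5h at 630.4 ± 119 TPM and Atp5j2 at 596 ± 68.1 TPM, and the lowest was Atp5f1, the b subunit of the peripheral stalk, at 295 ± 52.7 TPM. Atp5o, another peripheral stalk subunit, was at 409.8 ± 99.4 TPM, and 18.8% of its 25-base words also occur in other genes, chiefly Donson at 10.3 TPM. Atpif1, which encodes the inhibitor of ATP hydrolysis by the enzyme, was at 639.3 ± 117.8 TPM. Atp5s and Atp5sl, whose symbols match but which are not structural subunits, were at 11.2 ± 5.18 TPM and 14.1 ± 3.52 TPM.

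Atp5g1, Atp5g2 and Atp5g3 encode the same mature subunit c, which forms the rotating ring, and differ in their targeting peptides. Atp5g3 was listed at 607, 731, 954, 712, 689.9 and 750.1 TPM across replicates 1 to 6, Atp5g2 at 318, 356, 559, 336, 329 and 337 TPM across replicates 1 to 6 and Atp5g1 at 229.7, 295, 582, 290.0, 277 and 395 TPM across replicates 1 to 6. Atp5g3 thus made up 51.4 ± 3.0% of their summed level, Atp5g2 25.5 ± 1.62% and Atp5g1 23.1 ± 3.25%. Atp5g3 was the highest of the 3 in all 6 libraries. On the log2(TPM + 1) scale, Atp5g1 minus Atp5g3 was -1.16 ± 0.27 and Atp5g2 minus Atp5g3 was -1.01 ± 0.14 (exact permutation by sign flips, p = 0.03125, adjusted p = 0.0365 each). Atp5g1 and Atp5g2 were not told apart: Atp5g1 was higher in 2 of 6 libraries, replicates 3 and 6, and the difference of Atp5g1 minus Atp5g2 was -0.15 ± 0.25 (exact permutation by sign flips, p = 0.25, adjusted p = 0.25). The 3 genes shared no 25-base word with each other, so exact matches do not limit their separation.

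Related genes outside the symbol rule were set beside these as lists. The 4 subunits of complex II, which is wholly nuclear-encoded, had means from 80.9 TPM (Sdhc) to 298.2 TPM (Sdhb). Of 8 regulators of mitochondrial biogenesis, all were above 0 in every library, against 47.2% of all genes of the table. A mean TPM of 10 or more was reached by 3 of the 8, and by 6986 of the 23420 genes of the table. Levels ran from 1.32 TPM for the coactivator Ppargc1a to 27.4 TPM for the nuclear receptor Esrra. Of 6 genes for complex III assembly, 3 were in the table under the symbols used, and none of these 3 had a mean TPM of 10 or more. Older symbols of Uqcc1, Uqcc2 and Uqcc3 were not looked up, so their levels are not known here.

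The members varied less between libraries than the average gene. Over the 82 with a mean TPM of 1 or more the median SD of log2(TPM + 1) was 0.31, against 0.55 over all 12032 genes at that level, and 72 of the 82 lay below the latter value. The gap was smaller at high levels: among genes with a mean TPM of 100 or more the medians were 0.30 for the 67 members and 0.34 for all 1054 genes. The smallest spreads with a mean TPM of 10 or more were those of Ndufb3, a complex I accessory subunit, with an SD of 0.053 and 387, 372, 361, 395, 373 and 396 TPM across replicates 1 to 6; of Cox7a2 (0.12), Ndufb7 (0.13), Cox6b1 (0.13) and Ndufa13 (0.14). The largest were those of Ndufaf1 (1.55), Ndufaf7 (0.83), Cox7a1 (0.73), Ndufaf3 (0.67) and Atp5s (0.66), of which 3 are assembly factors. Atp5s was listed at 16.8, 11.7, 5.54, 9.9, 17.4 and 5.69 TPM across replicates 1 to 6.

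**Figure D3:**
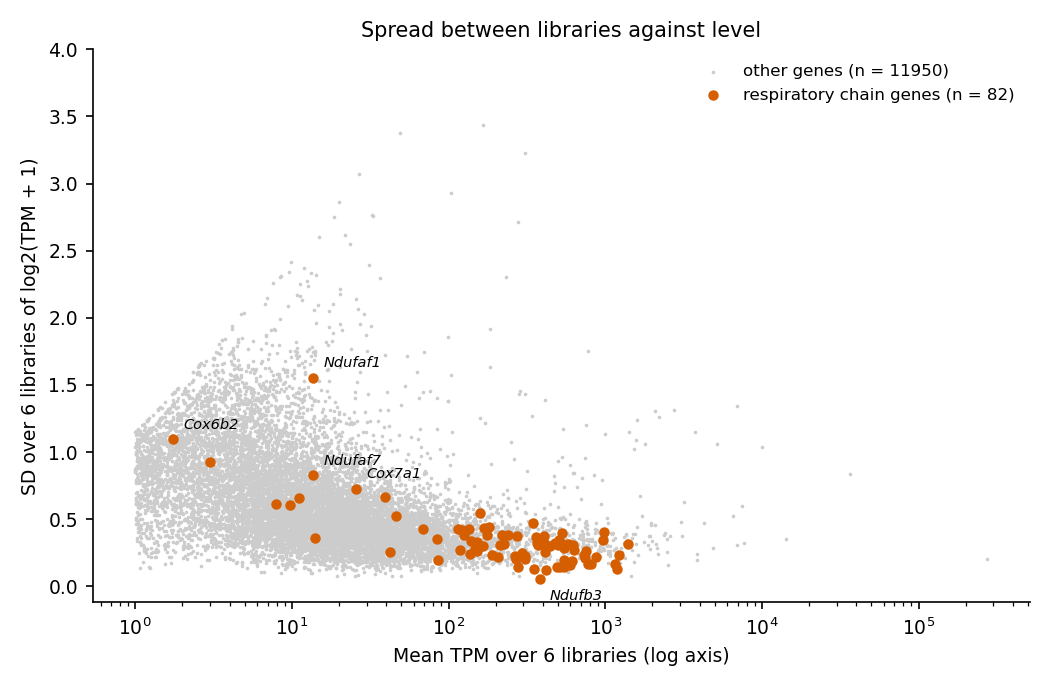
Spread between libraries against level, for genes with a mean TPM of 1 or more. The horizontal axis is mean TPM on a log scale, the vertical axis the SD over 6 libraries of log2(TPM + 1). Orange points are 82 respiratory chain genes and grey points all other genes. Most orange points lie at high level and low spread, and Ndufaf1 and Ndufaf7 lie above.

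Replicate 3 stood apart from the others. It was the highest library for 56 of the 82 members (68.3%), against 23.7% of all genes with a mean TPM of 1 or more, and for 48 of the 67 members with a mean TPM of 100 or more (71.6%), against 39.4% of all genes at that level. The count depends on scaling: after rescaling by median-of-ratios factors, which set each library to the median ratio of its genes to their mean over libraries, it was 38 of 82 (46.3%, against 19.5% of all genes), and with Rn45s and Gm20594 left out of the total it was 34 (41.5%, against 17.5%). As deposited, the share over all genes was larger at high level. The rescaled counts and the later values of this paragraph were set only against genes with a mean TPM of 1 or more. They were not matched for level. By class, replicate 3 was highest for 6 of 7 core and 16 of 29 accessory complex I genes, 6 of 7 assembly factors, 7 of 8 complex III genes, 8 of 14 complex IV genes and 13 of 15 ATP synthase genes. The median difference of a member from its own mean was 0.34 in replicate 3 on the log2(TPM + 1) scale, against 0.12 for all genes, and 0.24 against 0.03 after rescaling. Replicate 1 was the lowest library for 30 of the 82 (36.6%, against 17.5% of all genes) and replicate 4 for 23 (28.0%, against 15.8%). Both counts were made on deposited TPM only, and they too can depend on scaling. After median-of-ratios rescaling the members' median difference went from -0.123 to -0.185 in replicate 1 and from -0.147 to -0.092 in replicate 4. In replicate 2 it went from 0.004 to -0.158. Dixon's ratio is the gap of a library to its nearest neighbour divided by the whole range. For single genes it was taken on TPM, not on the log2(TPM + 1) scale, where a high library lies less far apart. By this ratio 13 of the 82 members (15.9%) had 1 library apart, against 9.04% of all genes. Of these 13, 11 had replicate 3 as the high library. The largest ratio was that of Atp5g2, at 559 TPM in replicate 3 and 318 to 356 TPM in the others.

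**Figure D4:**
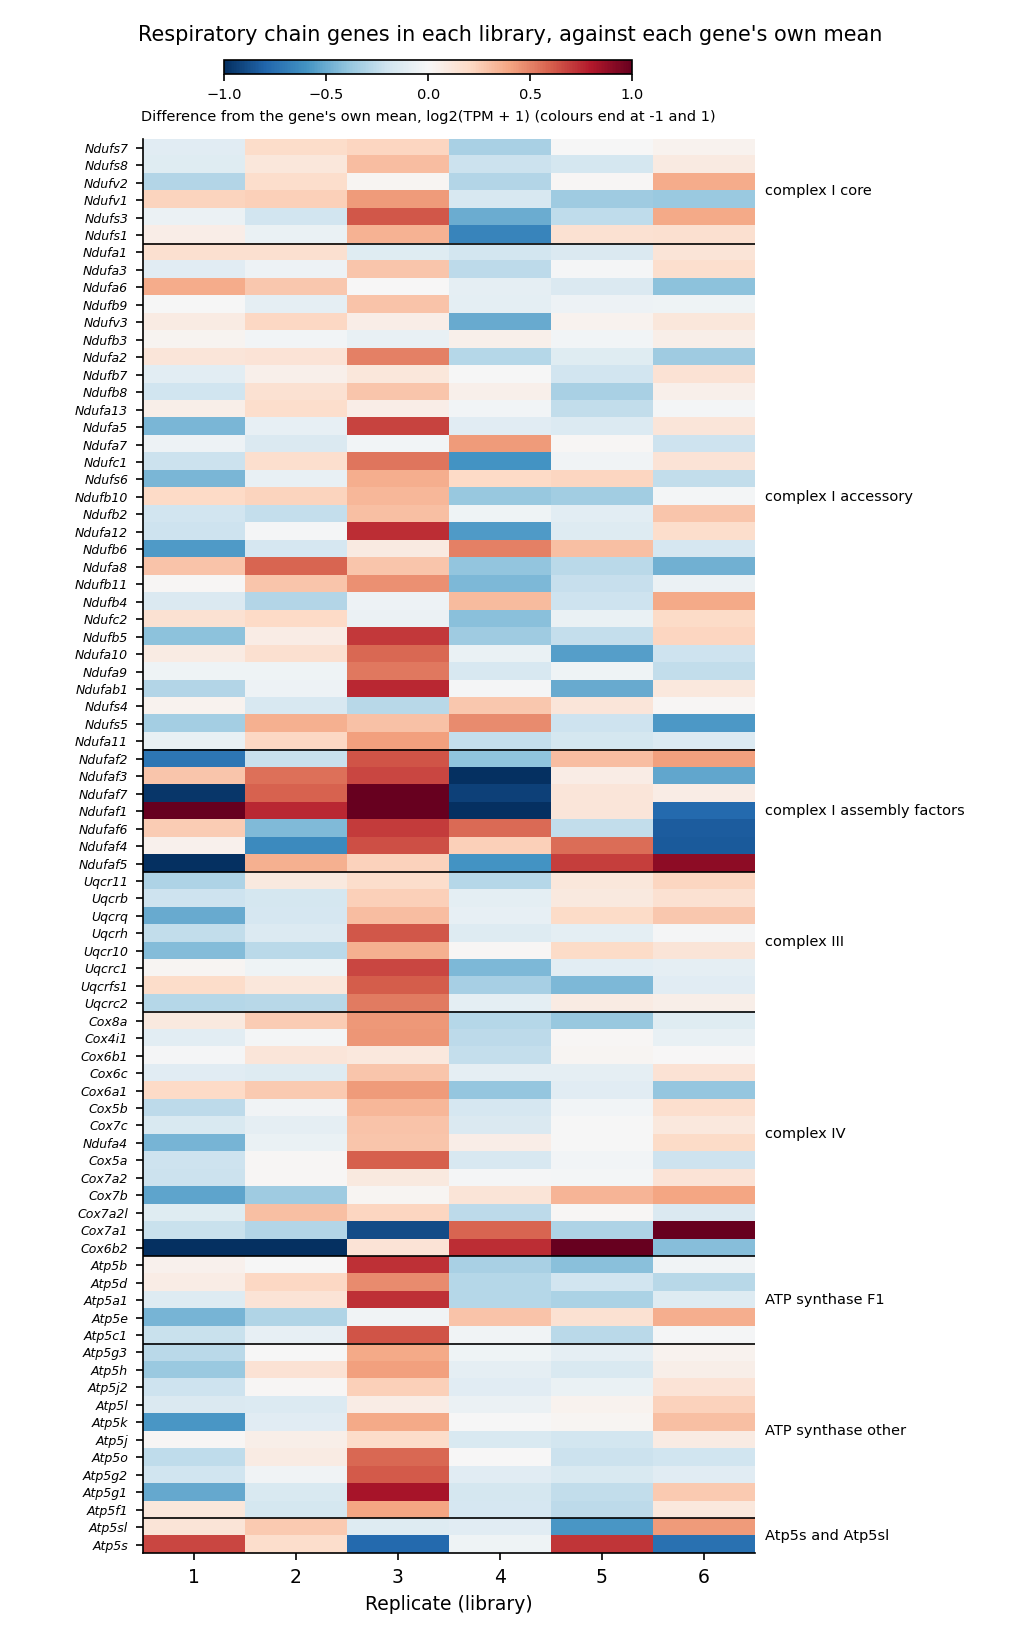
Difference in each library from the mean of the gene, in log2(TPM + 1), for 81 of the 82 genes with a mean TPM of 1 or more, ordered by complex and by level within it. Red is above the mean and blue below, and colours end at -1 and 1. The column of replicate 3 is red for most genes, and the assembly factors vary most.

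Other features of replicate 3 are given as values. It had the lowest share of Rn45s (23.1%), the lowest Gm20594 (15588 TPM), the lowest sum of tuft cell markers (2846 TPM, against 3114 to 4541 TPM in the others) and the lowest sum of enterocyte markers (5969 TPM). Neither low sum holds for each marker. Trpm5, Il25 and Rgs13 were lowest in replicate 3, but Dclk1 and Pou2f3 in replicate 5 and Gfi1b and Avil in replicate 6. Apoa1, Apoa4, Fabp2, Sis and Anpep were lowest in replicate 3. Fabp1, most of the enterocyte sum there (5041 TPM), was lowest in replicate 5 (4226 TPM), Alpi in replicate 2 and Slc5a1 in replicate 1. The Paneth cell sum of replicate 3 (3815 TPM) was above only that of replicate 2 and its goblet cell sum (1991 TPM) was the third highest. Its enteroendocrine sum was 384 TPM, against 367 to 523 TPM over all 6 libraries. Of these 6 markers Sct, the most abundant, was lowest in replicate 3 (331 TPM), while Gcg (45.7 TPM) and Neurod1 (2.52 TPM) were highest there. The sum of immune cell markers was lowest in replicate 3 (122 TPM, against 167 to 286 TPM in the others). Most of it was Ptprc (84.5 TPM), which was lower in replicates 5 and 6 (77.4 and 74.2 TPM). Gzma was at 29.05 TPM in replicate 3 and lowest in replicate 1 (10.4 TPM), so the low sum does not hold for each marker. The sum of stem cell markers was the second highest in replicate 3 (773 TPM). Among the related lists, all 4 complex II genes, Cycs and Cyc1 were highest in replicate 3, and Cyct was above 0 only there (1.48 TPM). The same held for 5 of 15 complex IV assembly genes and 3 of 8 biogenesis regulators. It held for 1 of 4 ATP synthase assembly and inhibitor genes, 1 of 6 further complex I assembly factors and 0 of 3 complex III assembly genes. The share over all genes with a mean TPM of 1 or more was 23.7%, and these lists are short. The part that cell composition or scaling played in the result of replicate 3 was not tested beyond the rescaled counts.

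Replicates 1 to 3 and 4 to 6 differed in Gm20594, and the labels give no batch that matches these sets. Members were compared across them as values, with no test. Of the 82 members, 17 (20.7%, against 12.8% of all genes) were lower in each of replicates 4 to 6 than in each of 1 to 3, and 2 (2.44%, against 3.5%) were higher. The 2 were Atp5e, at 420.7 ± 63.8 and 605.6 ± 45.2 TPM in replicates 1 to 3 and 4 to 6 (SD, n = 3 each), and Cox7b, at 329.6 ± 66.2 and 487 ± 46.9 TPM. Among the 17, Cox8a was at 1638 ± 195 and 1138 ± 104 TPM, Cox6a1 at 1167 ± 96.9 and 775 ± 87.5 TPM and Atp5d at 733 ± 105 and 514 ± 17.9 TPM. The balance reversed under both other scalings: 7 members were lower and 9 higher after median-of-ratios rescaling (8.54% and 11.0%, against 6.38% and 6.32% of all genes), and 7 were lower and 10 higher with Rn45s and Gm20594 left out (8.54% and 12.2%, against 6.41% and 6.05%). No direction between these sets is therefore given for the members as a whole.

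**Figure D5:**
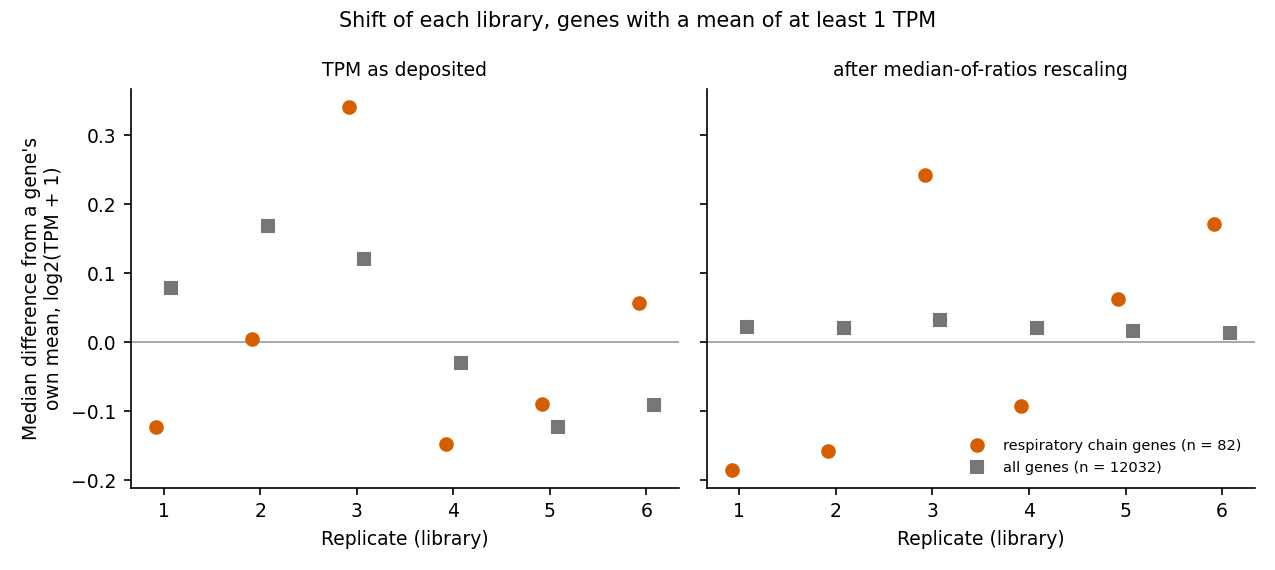
Shift of each library for respiratory chain genes (orange) and for all genes (grey), as the median difference of a gene from its own mean in log2(TPM + 1). The left panel shows TPM as deposited and the right panel values after rescaling by median-of-ratios factors. After rescaling the members still differ between libraries, from -0.19 in replicate 1 to 0.24 in replicate 3.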

How the data were processed

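Ileal epithelium was sorted for GFP+ EpCam+ CD45- PI- cells, amplified by SMART-Seq2 for 18 cycles and sequenced in pairs. The authors aligned reads with Bowtie to the UCSC mm10 transcriptome (1 mismatch, fragments up to 2000 bases, at most 15 alignments per read) and deposited TPM from RSEM 1.2.3, 1 column per library, to 2 decimals. A read that fits several genes is divided among them by RSEM, which touches near-identical copies; the strand setting is not given in the sources used here. Depth is unknown and no interval for counting error is given. Each library is 1 labelled replicate, and whether each came from 1 mouse is stated only in its title. The exact permutation test by sign flips runs over these 6 libraries. Its p is 0.03125 whenever all 6 differences share a sign, whatever their spread.

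Members, lists and tests were chosen with earlier results of these data known; promoter, shared-word and library-set descriptions were added after values were seen. Values were analysed as log2(TPM + 1), except where TPM are given and for Dixon's ratio of single genes, which was taken on TPM. Python 3.11.15, numpy 2.4.6, pandas 2.3.3 and scipy 1.17.1 were used. Paralogs were compared within libraries by an exact permutation test, two-sided, that enumerates 64 sign flips. Its p was adjusted by Benjamini-Hochberg over the 7 pairs with both genes above 0 somewhere. The permutation test was checked only on 6 fixed values of the same sign. Rescaling, spread, the share of genes highest in 1 library and Dixon's ratio were run on simulated data. Counts per library used genes with a mean TPM of 1 or more. Genes named are all paralog pair members, the core complex I subunits (1 of the 7 is not reported singly here), the 3 highest and 3 lowest of each class, the 5 largest and 5 smallest spreads with a mean TPM of 10 or more, and members at 0 throughout; those named for a Dixon gap, for shared words or for a motif were chosen after their values were seen. Dixon's critical value for 6 libraries was 0.625. Positions and transcript lengths are from GENCODE M21 (GRCm38, the assembly of mm10) and promoters from RefSeq GRCm38.p6. Alternatives were other pseudocounts, a minimum on low values, median-of-ratios rescaling, totals without Rn45s and Gm20594, leaving out each library, an exact Mann-Whitney test and means in place of medians.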

Additional observations from a re-analysis of the deposited data

Results flagged for a closer look

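In 14 of 102 measures (88 genes, 7 class medians and 7 paralog differences) 1 library lay apart from the other 5, with a gap to the nearest library, as a share of the whole range (Dixon's ratio), above the critical value. Chance alone flags about 1 in 20 groups, and the same ratio was past the critical value for 9.04% of all genes with a mean TPM of 1 or more, against 15.9% of the 82 members at that level. Replicate 3 was the high library for Atp5g2 (ratio 0.842), Uqcrh (0.791), Ndufa9 (0.786), Cox5a (0.781), Atp5c1 (0.774), Ndufb9 (0.774), Atp5b (0.688), Uqcrc1 (0.676), Cox4i1 (0.668), Atp5o (0.66) and Atp5a1 (0.654), and for the median level of the F1 genes of ATP synthase (0.685). Without replicate 3 the mean of Cox4i1 was 1140.0 TPM in place of 1225 TPM, that of Atp5b 859 TPM in place of 976 TPM and that of Uqcrh 460.0 TPM in place of 512 TPM. Cox4i1 in replicate 3 was at 1645 TPM and lay between 1011 and 1221 TPM in the others. Replicate 4 was the high library for Ndufa7 (0.703), at 355 TPM against 228 to 266 TPM, and the low library for Ndufv3 (0.711), at 288 TPM against 419 to 472 TPM. The 11 genes apart in replicate 3 share that library and its scaling, so they are not separate observations. Ratios of single genes were taken on TPM, and those of class medians and paralog differences on the log2(TPM + 1) scale. On the latter scale the ratios of Atp5a1, Atp5b, Atp5o, Cox4i1 and Uqcrc1 would fall below the critical value.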

How the results depend on the processing

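Of 207 recomputed values, 194 kept their direction and their side of the threshold or stayed within 1 SD or 1.5 times, 13 moved further and 0 changed sign. With Rn45s and Gm20594 left out of the total, class medians on the log2(TPM + 1) scale were 7.75 for complex I core, 8.29 for complex I accessory, 9.40 for complex III, 9.19 for complex IV, 9.67 for ATP synthase F1 and 9.48 for the other ATP synthase genes, higher by construction since the total shrinks, and the members highest in replicate 3 numbered 34. The complex IV level was 5.98 as a mean and 9.66 over genes above 0 in every library. In alternatives chosen after seeing the data, members lower in replicates 4 to 6 numbered 7 under both rescalings, and members higher there 9 by median-of-ratios and 10 without the 2 genes. No paired analysis was possible because the 6 libraries form 1 group, beyond the comparison of paralogs within each library. With 1 library left out, the exact permutation test cannot go below p = 0.0625, so those paralog differences are values without a test; Cox7a2 minus Cox7a1 ranged from 3.95 to 4.35 and Atp5g1 minus Atp5g2 from -0.23 to -0.09. The ratio of the members' median spread to that of all genes ranged from 0.46 to 0.61 when 1 library was left out. Depth is unknown, so a gene listed at 0 is not shown to be absent.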
